A study of Mus musculus with 10 samples.

Results

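Matrix metalloproteinase genes Mmp2, Mmp3, Mmp8, Mmp9, Mmp10, Mmp12, Mmp13, Mmp14, Mmp19 and Mmp23 were followed in tissue labelled synovium (joint lining) of arthritic mice. They are 10 of 18128 genes measured. Each gene was read from probe sets that the platform annotation assigns to it alone, and where several existed the one with the highest mean over the 10 arrays was taken. All 10 genes had such a probe set, and no filter on low values was applied. They were grouped by the cells best known for making them: 7 stromal genes (Mmp2, Mmp3, Mmp10, Mmp13, Mmp14, Mmp19 and Mmp23), 1 macrophage gene (Mmp12) and 2 neutrophil genes (Mmp8 and Mmp9). The rule used the mean level to choose a probe set, and no difference between mice or groups.

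The arrays measured tissue labelled synovium of the left hind leg and described as freed of muscle and skin. It came from 10 male DBA/1J mice bought at 5 weeks of age and labelled 8 weeks old. Markers of skeletal muscle were nevertheless among the highest deposited values, as given with the marker scores below. All 10 mice carried collagen antibody-induced arthritis (CAIA): 1 mg of monoclonal antibody to type II collagen was injected intraperitoneally on day 8, 25 µg of LPS followed on day 11, and the mice were killed on day 12. All ate an AIN-93G diet with corn oil as its fat. The 5 vehicle mice received corn oil by mouth daily, and the 5 maslinic acid mice received 200 mg/kg of maslinic acid, a triterpene of olive fruit, suspended in corn oil. These mice were selected from larger groups by a criterion that the labels do not state. The untreated group of the design is not analysed here, so no value below says how far arthritis itself moved a gene. In CAIA the antibodies are supplied from outside, and the model therefore covers the effector stage of arthritis without the mouse's own response to collagen.

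Matrix metalloproteinases are zinc-dependent proteases that cut collagens, proteoglycans and other matrix proteins, and most are made as inactive proenzymes. In an inflamed joint, fibroblasts of the lining, chondrocytes and bone cells make stromelysins, collagenase-3 and gelatinase A under the influence of interleukin-1, TNF and related cytokines, largely through AP-1 factors. Macrophages make the elastase Mmp12, and neutrophils carry the collagenase Mmp8 and the gelatinase Mmp9 preformed in granules. Tissue inhibitors (TIMPs) block the active enzymes, and Mmp14, held in the cell membrane, activates pro-Mmp2 together with Timp2.

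In the cluster of metalloproteinase genes on mouse chromosome 9 lie 5 of the genes, Mmp13, Mmp12, Mmp3, Mmp10 and Mmp8 in that order. Mmp2 is on chromosome 8, Mmp9 on chromosome 2, Mmp14 on chromosome 14, Mmp19 on chromosome 10 and Mmp23 on chromosome 4. The RefSeq promoter table (GRCm38.p6) held windows for 7 of the 10 genes. The 250 bases before the annotated transcript start are shown for 3 stromal genes of the cluster, not all adjacent, that carried both the AP-1 and the TATAAA letters. They are also shown for Mmp14, a stromal gene that carried neither. All are on the plus strand, written 5′ to 3′, with matches to TGANTCA (AP-1) and to TATAAA (the core of the TATA box) in capitals. Mmp3 is at chr9:7445572-7445821, Mmp10 at chr9:7502092-7502341, Mmp13 at chr9:7272264-7272513 and Mmp14 at chr14:54431348-54431597.

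Mmp3: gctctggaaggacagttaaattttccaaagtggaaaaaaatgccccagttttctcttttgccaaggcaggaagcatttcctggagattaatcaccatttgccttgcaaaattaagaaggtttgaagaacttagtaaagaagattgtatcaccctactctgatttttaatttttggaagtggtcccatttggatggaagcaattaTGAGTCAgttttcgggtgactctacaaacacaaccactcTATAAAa
Mmp10: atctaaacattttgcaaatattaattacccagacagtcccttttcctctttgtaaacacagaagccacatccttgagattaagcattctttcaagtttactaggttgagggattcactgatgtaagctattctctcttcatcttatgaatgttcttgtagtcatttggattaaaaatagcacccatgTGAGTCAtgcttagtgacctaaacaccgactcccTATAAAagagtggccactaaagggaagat
Mmp13: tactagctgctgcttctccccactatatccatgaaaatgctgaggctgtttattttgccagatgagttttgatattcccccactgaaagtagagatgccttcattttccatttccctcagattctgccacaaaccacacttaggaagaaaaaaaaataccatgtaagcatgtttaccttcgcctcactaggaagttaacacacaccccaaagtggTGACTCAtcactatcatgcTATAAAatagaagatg
Mmp14: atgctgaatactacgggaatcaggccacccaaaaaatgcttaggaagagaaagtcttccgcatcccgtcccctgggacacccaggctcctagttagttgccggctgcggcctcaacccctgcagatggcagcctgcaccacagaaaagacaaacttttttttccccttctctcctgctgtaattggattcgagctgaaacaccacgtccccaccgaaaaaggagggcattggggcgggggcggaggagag

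The AP-1 match began at position -46 in Mmp3, -63 in Mmp10 and -35 in Mmp13, counted back from -1 at the last base shown. TATAAA began at -7 in Mmp3, -29 in Mmp10 and -16 in Mmp13. Whether it serves as a TATA box at these distances from the annotated start was not tested. Searched on both strands, TGANTCA occurred in 6.75% of the 32851 windows of this length from 27025 genes, and TATAAA in 12.4%. Among the member windows AP-1 matches were also found in 1 of the 2 Mmp12 windows, at -44, and neither motif was found in Mmp8 or in either Mmp23 window. The Mmp13 window also held AACCACA, the core that RUNX factors bind, at -119; 4.4% of all windows held it. Mmp14 held 2 copies of GGGCGG, the GC box, which 32.7% of windows held at least once. The motifs did not overlap in the sequences shown. A match describes letters only, and no binding was measured here.

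The deposited values look like log2 levels, with a median of 6.74, but differ very little between arrays: in 93.5% of the 39993 probe sets the highest and lowest array lay within 0.001. Neither labels nor processing notes say how they were normalised, so the scale of a difference is unknown and no fold change is stated. A mouse's value is given below in steps of 1e-06, the last deposited decimal, above the lowest of the 10 arrays for that gene. Each comparison is given as Hedges' g, the difference of group means in units of the within-group SD, maslinic acid minus vehicle, with its 95% interval (n = 5 per group). Neither steps nor levels are compared between genes as amounts of RNA. Vehicle mice 3 and 5 stood apart from the rest over the whole array, with limma array weights of 0.458 and 0.339, where the remaining 8 arrays had 0.857 to 2.01. Each gene's g without these 2 mice is therefore given beside the value from all 10. Different scalings moved the median g of all 18128 genes from 0.00 to -0.28 (quantile normalization) and -0.39 (each array centred on its median).

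No member differed between maslinic acid and vehicle after adjustment over all probe sets: 0 of 10 passed, and 0 of 39993 probe sets did (0.0%; of genes alone, 0 of 18128, 0.0%; limma, Benjamini-Hochberg threshold 0.05). The lowest adjusted p of any probe set was 0.148, and that of any gene, adjusted over genes, 0.409. At an unadjusted limma p under 0.05, 1 of 10 members was called, Mmp2, higher with maslinic acid. Over all genes 8.83% were called in either direction, 4.29% higher and 4.54% lower, and over all probe sets 9.04%. Exact Wilcoxon tests called 0 probe sets too, but their smallest p in this design, 0.00794, hardly allows a call after adjustment over so many, so this count adds nothing. The group ranges overlapped for all 10 members, while they did not overlap for 1.38% of all genes. In simulated data of this size, the test recovered 8% of changes of 2 SD, 62% of 4 SD and 92% of 6 SD. In the simulated setting, changes of the size seen in the members would rarely have been called.

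Of the 10 members 7 had a higher mean with maslinic acid, against 47.9% of all genes. Only 6743 of the 18128 genes held 10 distinct values, and the share higher among them was not taken. Of the marker lists defined below, 12 of 12 fibroblast, 10 of 10 chondrocyte and 7 of 8 osteoclast markers were higher too, but 1 of 10 neutrophil markers. The count is therefore not read as a trait of the family. Most of the higher members were stromal: 6 of 7 stromal genes were higher, with a median g of 0.85. However, Mmp13 and Mmp19 were lower after quantile normalization and Mmp19 also after centring. The median of the stromal genes was 0.08 after quantile normalization and 0.20 after centring, against -0.28 and -0.39 over all genes. It was 0.37 without vehicle mice 3 and 5. Mmp12 had a g of -0.26, and the neutrophil genes stood on opposite sides of 0, Mmp8 at -0.57 and Mmp9 at 1.01.

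**Figure D1:**
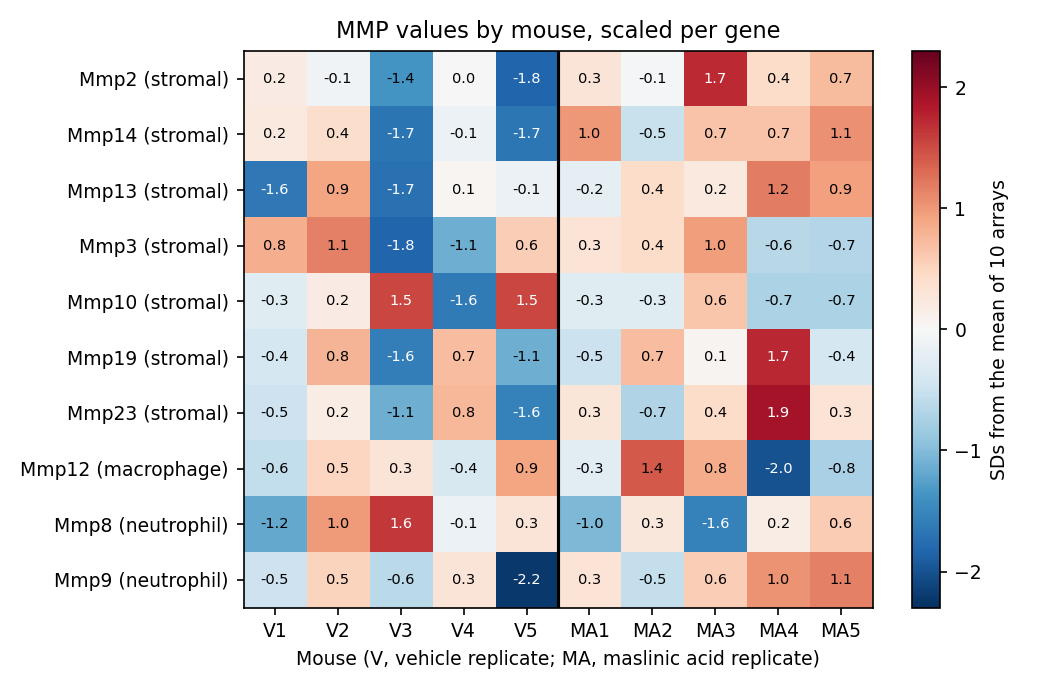
Deposited value of each of the 10 genes (rows) on each of the 10 arrays (columns; V, vehicle; MA, maslinic acid), in SDs from that gene's mean over the arrays. Vehicle mouse 3 held the lowest value of 4 genes and the highest of 2, and vehicle mouse 5 the lowest of 3.

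Mmp2 is gelatinase A, which cuts denatured collagen and basement membrane collagen. It stood at 5300, 4604, 1196, 4802 and 0 steps in vehicle mice 1 to 5 and at 5615, 4690, 9345, 5920 and 6703 steps in maslinic acid mice 1 to 5. All 5 maslinic acid mice lay above the vehicle mean, and vehicle mice 3 and 5 were lowest. The means were 3180 ± 2408 steps (SD, n = 5) and 6455 ± 1769 steps (SD, n = 5). The difference was g = 1.40 (95% interval 0.06 to 2.68; limma p = 0.0339, adjusted p = 0.521; exact permutation p = 0.0238). It was 0.93 without vehicle mice 3 and 5. The other Mmp2 probe set gave 1.39 (0.05 to 2.66) and followed the first at r = 0.99.

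Mmp14, the membrane-anchored activator of Mmp2, stood at 320, 351, 0, 261 and 3 steps in the vehicle mice and at 450, 197, 391, 392 and 459 steps in the maslinic acid mice. The same vehicle mice, 3 and 5, were lowest, and every maslinic acid mouse lay above the vehicle mean of 187 ± 172 steps (SD, n = 5). The maslinic acid mean was 378 ± 106 steps (SD, n = 5). The difference was g = 1.20 (-0.09 to 2.44; limma adjusted p = 0.566; exact permutation p = 0.0794), 0.65 without vehicle mice 3 and 5 and 0.08 after quantile normalization. The other Mmp14 probe sets gave 0.55 (-0.61 to 1.69) and 1.37 (0.04 to 2.64), and their r with the chosen one was 0.86 and 0.91.

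Mmp13, collagenase-3, cuts fibrillar collagen of cartilage and bone. Its vehicle mice stood at 4, 135, 0, 91 and 82 steps and its maslinic acid mice at 78, 110, 100, 149 and 137 steps. Here vehicle mice 1 and 3 were low, and vehicle mouse 5 was not. The means were 62.4 ± 58.7 and 115 ± 28.5 steps (SD, n = 5 each), with g = 1.03 (-0.22 to 2.22; limma adjusted p = 0.603; exact permutation p = 0.119). The value was 0.74 without vehicle mice 3 and 5, 0.20 after centring and -0.57 after quantile normalization.

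Mmp3, stromelysin-1, cuts proteoglycans and activates other proenzymes. Its mice differed already in the first decimal: 8.41, 8.48, 7.78, 7.94 and 8.34 in the vehicle mice and 8.28, 8.31, 8.43, 8.06 and 8.05 in the maslinic acid mice. Its SD over the 10 arrays, 0.237, ranked 3 among the SDs of 18128 genes, and its range was 0.704. Vehicle mice held both the highest and the lowest values, and the range of the maslinic acid mice lay inside that of the vehicle mice. The group SDs were 0.311 (vehicle, n = 5) and 0.169 (maslinic acid, n = 5). The difference was g = 0.13 (-0.99 to 1.25; limma adjusted p = 0.951; exact permutation p = 0.825). Without vehicle mice 3 and 5 the sign turned, to -0.20.

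Mmp23, a membrane-linked member without the usual haemopexin domain, stood at 108, 172, 44, 230 and 0 steps in vehicle mice and at 181, 86, 196, 344 and 186 steps in maslinic acid mice. Vehicle mice 3 and 5 were again lowest; g was 0.85 (-0.36 to 2.02; limma adjusted p = 0.653), and 0.30 without them. Mmp19, first described in rheumatoid synovium, stood at 51, 101, 0, 98 and 20 steps in vehicle mice and at 47, 98, 71, 142 and 51 steps in maslinic acid mice. Its g was 0.59 (-0.58 to 1.73; limma adjusted p = 0.754), with -0.04 without vehicle mice 3 and 5, -0.08 after centring and -0.86 after quantile normalization. The other probe sets of these genes gave 0.69 (-0.49 to 1.84) for Mmp23 and 0.83 (-0.38 to 2.00) for Mmp19.

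Mmp10, stromelysin-2, spanned 7 steps over all 10 arrays and took 6 distinct values, so that rounding set much of its pattern. It stood at 3, 4, 7, 0 and 7 steps in vehicle mice and at 3, 3, 5, 2 and 2 steps in maslinic acid mice. Unlike Mmp2, Mmp14 and Mmp23, it was highest in vehicle mice 3 and 5. Its g was -0.48 (-1.61 to 0.68; limma adjusted p = 0.808), and 0.37 without those mice.

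**Figure D2:**
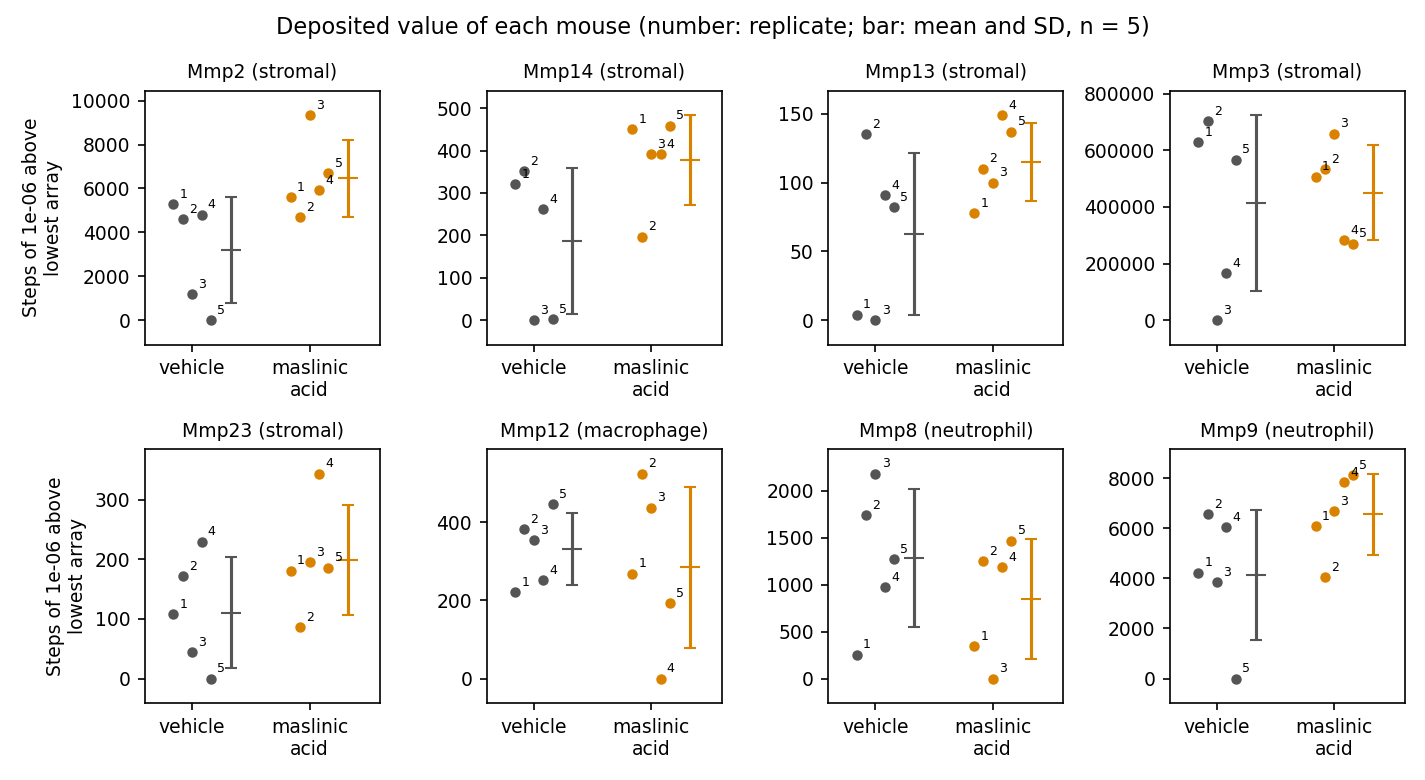
Value of each mouse in steps of 1e-06 above the lowest array, for 8 of the 10 genes; dots are mice with their replicate number, bars the mean and SD of 5 mice, and each panel has its own axis. Vehicle mice 3 and 5 are the 2 lowest points for Mmp2, Mmp14 and Mmp23, and the groups overlap in all panels.

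Mmp12, the macrophage elastase, stood at 222, 383, 355, 253 and 447 steps in vehicle mice and at 269, 525, 438, 0 and 193 steps in maslinic acid mice. Maslinic acid mice held both its highest value and its lowest, in mice 2 and 4. The means were 332 ± 93.1 and 285 ± 207 steps (SD, n = 5 each), and g was -0.26 (-1.38 to 0.87; limma adjusted p = 0.901; exact permutation p = 0.659). It was 0.18 without maslinic acid mouse 4 and -0.00 without vehicle mice 3 and 5. The macrophage marker score, defined below, differed little between the groups, with -0.06 ± 0.38 in vehicle mice and 0.06 ± 0.53 in maslinic acid mice.

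Mmp8, the neutrophil collagenase, stood at 256, 1742, 2181, 970 and 1267 steps in vehicle mice and at 348, 1246, 0, 1184 and 1467 steps in maslinic acid mice. Vehicle mouse 3 was highest and maslinic acid mouse 3 lowest. The means were 1283 ± 737 and 849 ± 637 steps (SD, n = 5 each), with g = -0.57 (-1.71 to 0.60; limma adjusted p = 0.764; exact permutation p = 0.357). The value was -0.18 without vehicle mice 3 and 5 and 0.33 after quantile normalization.

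Mmp9, gelatinase B, is stored in neutrophil granules and is also made by osteoclasts. It stood at 4229, 6566, 3851, 6053 and 0 steps in vehicle mice and at 6091, 4038, 6691, 7843 and 8111 steps in maslinic acid mice. Vehicle mouse 5, in which Mmp8 was near its mean, held the lowest Mmp9 value, and maslinic acid mouse 3, lowest for Mmp8, was above the Mmp9 mean. The means were 4140 ± 2587 and 6555 ± 1632 steps (SD, n = 5 each), with g = 1.01 (-0.24 to 2.20; limma adjusted p = 0.608; exact permutation p = 0.111). It was 0.54 without vehicle mice 3 and 5, and the other Mmp9 probe set gave 0.76 (-0.44 to 1.91) at r = 0.98 with the first.

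**Figure D3:**
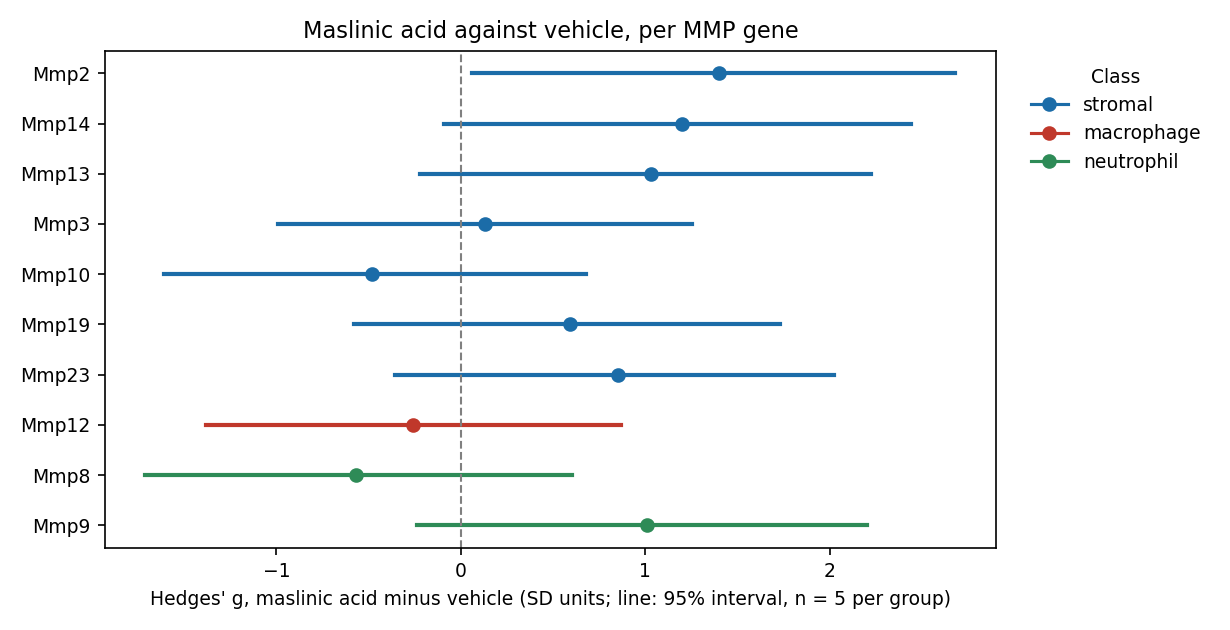
Hedges' g of each gene, maslinic acid minus vehicle, in within-group SDs, with its 95% interval (n = 5 per group); colours mark the stromal, macrophage and neutrophil genes. The interval of Mmp2 alone, 0.06 to 2.68, lies above 0, and no adjusted p passed.

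Spread between mice was larger in the vehicle group for most members. Among the 8 members whose 10 arrays held 10 distinct values, 7 had the larger SD in vehicle mice, against 81.7% of the 6743 genes of that kind, so the members did not stand out. The ratio of vehicle to maslinic acid SD was 2.06 for Mmp13, 1.84 for Mmp3, 1.63 for Mmp14, 1.59 for Mmp9 and 1.36 for Mmp2. Mmp12 went the other way, at 0.451. These SDs include vehicle mice 3 and 5. The other vehicle mice spanned 4604 to 5300 steps for Mmp2, 261 to 351 for Mmp14 and 4229 to 6566 for Mmp9. Maslinic acid mice spanned more, 4690 to 9345, 197 to 459 and 4038 to 8111 steps. For Mmp13 and Mmp3 the vehicle span stayed wider. SD ratios without vehicle mice 3 and 5 were not taken. Ranked by SD over 10 arrays among 18128 genes, Mmp3 was followed by Mmp2 at 323, Mmp9 at 349 and Mmp8 at 836, and Mmp10 was last at 13767. These ranks describe deposited values whose differences may not share 1 scale across probe sets.

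Which members varied together was asked over the 10 mice, for all 45 pairs. An adjusted permutation p under 0.05 was found for 3 pairs, all positive: Mmp2 with Mmp14, Mmp9 with Mmp23 and Mmp9 with Mmp14. Of the 45 pairs 13 reached an absolute r of 0.63 (28.9%), against 23.3% of 22730653 pairs of genes with 10 distinct values. Before rounding 2 pairs reached 0.85, which 2.38% of all gene pairs did with positive sign. Pairs of genes on these arrays were often correlated, and the members were near that background.

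Mmp2 and its activator Mmp14 had r = 0.87 (permutation p = 0.00186, adjusted 0.0295) and Spearman rho = 0.83 (p = 0.00438, adjusted 0.0628). Without the 2 arrays farthest from the Mmp2 median, vehicle mouse 5 and maslinic acid mouse 3, r was 0.93. Without vehicle mice 3 and 5 r was 0.50 and rho 0.69, and after quantile normalization r was 0.50 (adjusted p = 0.88). Within groups, as deviations from the group means, r was 0.79 (adjusted p = 0.126).

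Both other pairs joined Mmp9 to a stromal gene. With Mmp14 its r was 0.85 (permutation p = 0.00111, adjusted 0.0295) and its rho 0.90 (permutation p = 0.0008, adjusted 0.036). With Mmp23 its r was 0.86 (permutation p = 0.00197, adjusted 0.0295) and its rho 0.82 (permutation p = 0.00558, adjusted 0.0628). The 2 arrays farthest from the Mmp9 median were vehicle mice 3 and 5, and without them r was 0.74 with Mmp14 and 0.77 with Mmp23. After quantile normalization r was 0.03 with Mmp14 (adjusted p = 1.0) and 0.59 with Mmp23 (adjusted p = 0.88). As deviations from group means r was 0.78 and 0.82, neither below 0.05 after adjustment (adjusted p = 0.126). No batch is given in the labels, so no value within batches could be had. With Mmp8 the r of Mmp9 was -0.13 (permutation p = 0.734, adjusted 0.768) and the rho -0.19.

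By class, the 21 pairs within the stromal genes had a median r of 0.28, with 15 above 0. The 14 pairs of a stromal and a neutrophil gene had a median of -0.02, which joins unlike patterns. Mmp9 was above 0 with all stromal genes but Mmp3 and Mmp10, from -0.64 (Mmp10) to 0.86 (Mmp23). Mmp8 was below 0 with all but Mmp10 and Mmp13, from -0.62 (Mmp2) to 0.26 (Mmp10). The 7 pairs of a stromal gene with Mmp12 had a median of -0.25. The chromosome 9 genes with both the AP-1 and the TATAAA letters had no pair past adjustment over the 10 mice. Their r was 0.18 for Mmp3 with Mmp13, 0.14 for Mmp3 with Mmp10 and -0.42 for Mmp10 with Mmp13. With each array centred on its median, Mmp10 with Mmp13 turned to r = 0.77 (adjusted permutation p = 0.0303). Centring takes the same median from both genes of an array, which by itself can make them vary together. Its part in this r was not tested, so no conclusion is drawn from it. Without vehicle mice 3 and 5, however, Mmp3 with Mmp10 had r = 0.90 (adjusted permutation p = 0.0402). Those mice held the highest Mmp10 value, 7 steps, and the others stood at 0 to 5 steps, so rounding limits this r even more.

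**Figure D4:**
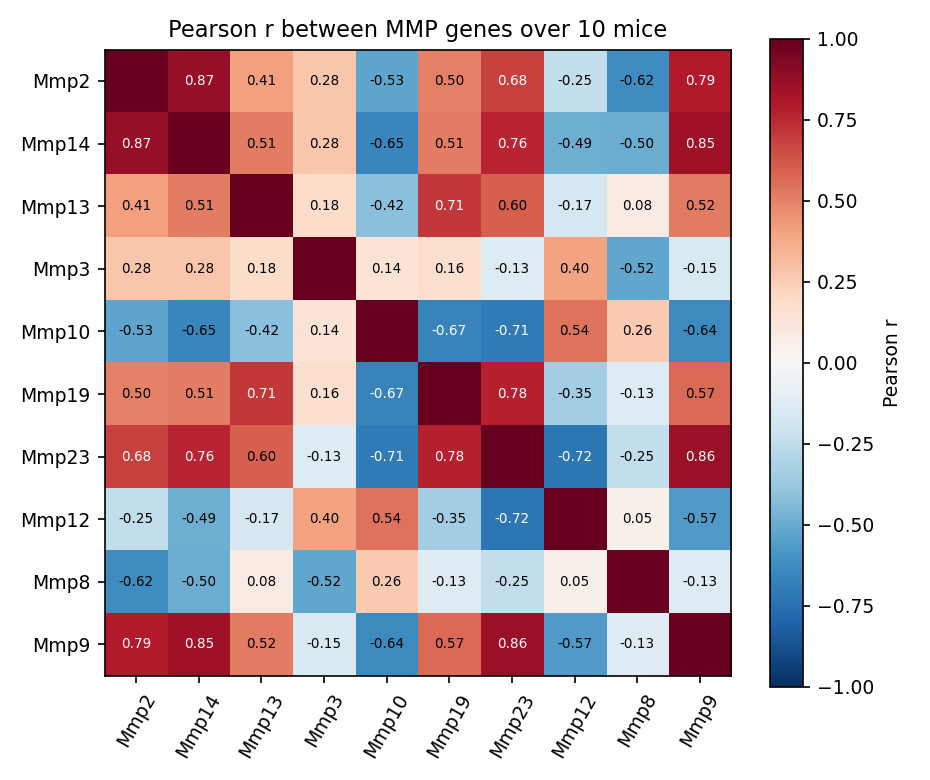
Pearson r between each pair of the 10 genes over 10 mice (colour and number). Mmp2, Mmp14, Mmp9 and Mmp23 share r of 0.68 to 0.87, while Mmp9 with Mmp8 is at -0.13.

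To set the members beside the cells that could carry them, a score per mouse was taken for each cell type as the mean, over its markers, of the SDs from each marker's mean. In whole tissue, fewer cells of a type and less RNA per cell cannot be told apart. Every marker list had values on all arrays, and no marker was listed at 0. No detection call is given, so neither presence nor absence of a cell type can be read from the values. This held too for Prg4, Pdpn, Thy1 and Cdh11, which mark synovial fibroblasts. By mean deposited value, skeletal muscle markers ranked from 13 (Acta1) to 10327 (Myh2) among 18128 genes, with Myh4 at 58 and Ckm at 93. Osteoblast markers ranked from 121 (Dmp1) to 6540 (Sp7). How much RNA came from muscle, bone or marrow was not tested, so no value here is assigned to the joint lining alone. Over the 80 pairs of a member and 1 of 8 scores, 0 passed adjustment for r, and the lowest adjusted permutation p was 0.0779. An unadjusted permutation p under 0.05 was found for 18. Whether other genes reach this as often with the same scores was not tested, so the 18 pairs single out no member. Correlations were common on these arrays: 23.3% of pairs of genes with distinct values on every array reached an absolute r of 0.63.

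Over the 10 mice Mmp9 did not follow the neutrophil score: r was -0.10 (permutation p = 0.783, adjusted 0.889) and rho -0.20. As deviations from group means its r was 0.52, which did not pass adjustment. Mmp8 had r = 0.43 with the neutrophil score (permutation p = 0.218, adjusted 0.472) and rho = 0.44. Its r was -0.06 without the 2 mice farthest from its median and 0.29 as deviations from group means. The neutrophil score itself, from 10 of 12 listed markers, ran from -0.25 to 0.93 in vehicle mice and from -0.61 to -0.21 in those given maslinic acid (exact permutation p = 0.0159, not adjusted over the marker scores). Of its markers 9 were lower with maslinic acid and 1, Lcn2, was higher (g = 1.14). S100a8 and S100a9, which count as much as the others, each differed by only 1 step. The summed levels of the neutrophil markers were 118.840 to 118.846 and 118.839 to 118.842. The part of this score's difference in Mmp8 and Mmp9 was not tested.

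Mmp9 had r = 0.80 with the osteoclast score (permutation p = 0.00292, adjusted 0.0779) and rho = 0.81 (permutation p = 0.00717, adjusted 0.222). Without vehicle mice 3 and 5 r was 0.65, or 0.72 with the score rescaled over the other 8 mice. Over all 10 mice Mmp9 had similar r with the endothelial (0.79), osteoblast (0.78) and chondrocyte (0.74) scores, each with an adjusted permutation p of 0.0986. Without vehicle mice 3 and 5 these were 0.09, 0.44 and 0.55, or 0.39, 0.39 and 0.55 with the scores rescaled. The endothelial rho over 10 mice was 0.50. Mmp13 had r = 0.84 with the osteoclast score (permutation p = 0.0018, adjusted 0.0779) and rho = 0.87 (permutation p = 0.00228, adjusted 0.182). Its r was 0.93 without vehicle mice 3 and 5 and 0.80 without vehicle mice 1 and 3, the 2 farthest from its median. These pairs were singled out after their values were seen. The osteoclast score, from 8 of 8 markers, ran from -1.14 to 0.56 in vehicle mice and from -0.23 to 1.00 in maslinic acid mice, with summed levels of 70.948 to 70.957 and 70.953 to 70.958. The osteoblast score, from 6 of 8 markers, ran from -1.23 to 0.16 and from -0.03 to 0.94 (exact permutation p = 0.0159, not adjusted over the marker scores), with summed levels of 58.304 to 58.313 and 58.313 to 58.318. The part of both in the stromal genes and in Mmp9 was not tested.

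**Figure D5:**
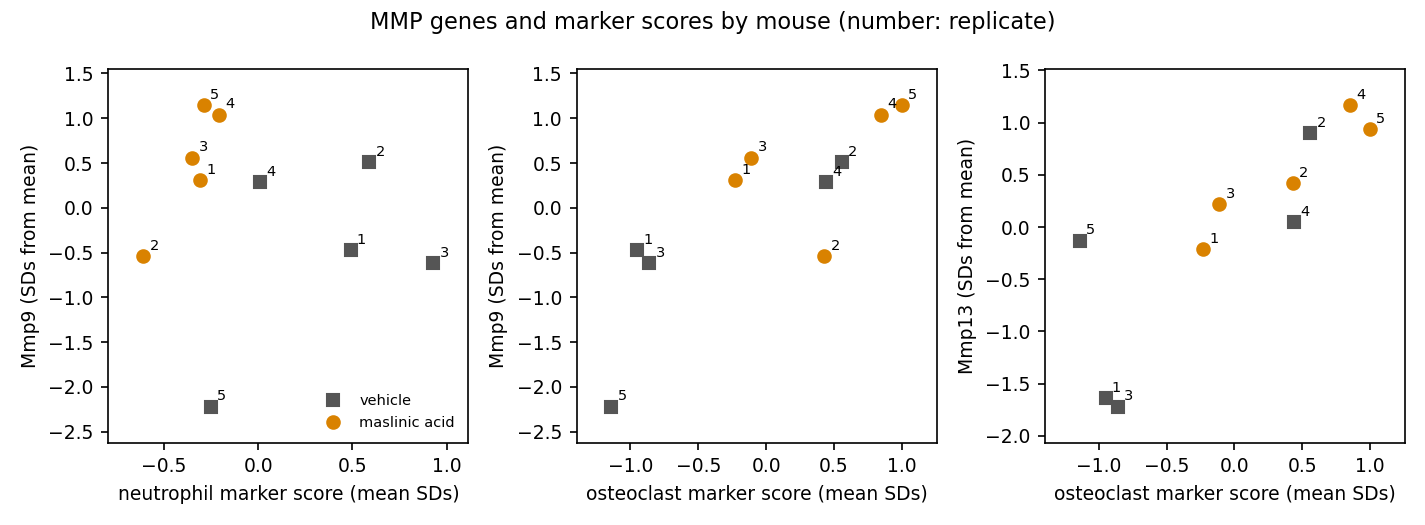
Mmp9 against the neutrophil score, and Mmp9 and Mmp13 against the osteoclast score; each point is a mouse with its replicate number, squares vehicle and circles maslinic acid, both axes in SDs. The r values are -0.10, 0.80 and 0.84 over 10 mice.

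Pairs of other members with the score of their class did not pass either. Mmp2 had r = 0.79 with the synovial fibroblast score (permutation p = 0.00699, adjusted 0.0986; rho 0.59), and 0.58 without the 2 mice farthest from its median. Mmp3 had r = 0.59 with the same score (permutation p = 0.0744, adjusted 0.259; rho 0.55) and 0.28 without the 2 mice farthest from its median. With the skeletal muscle score its r was -0.59 (permutation p = 0.0686, adjusted 0.259; rho -0.64). Mmp12 had r = 0.48 with the macrophage score (permutation p = 0.163, adjusted 0.395; rho 0.52). This r was 0.72 without vehicle mice 3 and 5. It was 0.27 without maslinic acid mice 2 and 4, the 2 mice farthest from the Mmp12 median. Outside the classes, Mmp2 had r = 0.88 with the endothelial score (permutation p = 0.00227, adjusted 0.0779), where rho was 0.48. The fibroblast score was -0.30 ± 0.36 in vehicle mice and 0.30 ± 0.55 in those given maslinic acid (exact permutation p = 0.0714), from 12 of 12 markers with summed levels of 114.607 to 114.659 and 114.618 to 114.685. Its part in the stromal genes was not tested.

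Genes outside the family whose pattern over the 10 mice was most like a member's were searched among 6735 genes with 10 distinct values. For Mmp3 they were Cyb561 (r = 0.97), the fibroblast marker Pdpn (0.96) and Lpgat1 (0.96). For Mmp13 they were Postn (0.98), which encodes the matrix protein periostin, Mt3 (0.95) and Ctsk (0.95), the collagen-cutting cathepsin of osteoclasts. For Mmp9 they were Atp6ap1, Nrp2 and Creb3l1, each at r = 0.98. For Mmp12 they were Bend6, AA414768 and Nectin3, each at 0.91, and for Mmp8 Rdh12 (0.93), 2610306M01Rik (0.89) and Gpr171 (0.87). Without the 2 mice farthest from the member's median these r lay between 0.72 for Mmp8 with Gpr171 and 0.95 for Mmp13 with Postn and Mmp9 with Atp6ap1. As maxima of a search over 10 arrays, they are a description only.

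Around the members, genes of the same system were counted from lists. The median g over all genes, to set beside each list, was 0.00, with -0.28 after quantile normalization and -0.39 after centring. From each list the 2 genes of lowest limma p are named, with Timp1 to Timp4 in any case. Their g, intervals and p-values are therefore a description only. Of the inhibitors 6 of 7 had a higher mean with maslinic acid and 0 passed, with a median g of 0.68, against 0.00 over all genes. After quantile normalization their median was 0.00, against -0.28 over all genes. Timp4 stood at 1.43 (0.08 to 2.71; limma p = 0.0315, limma adjusted p = 0.517; exact permutation p = 0.0476) and at 2.94 without vehicle mouse 4. A2m, a trap for active proteases, stood at 1.04 (-0.21 to 2.24) and Timp3, bound to the matrix, at 0.90 (-0.32 to 2.08). Timp2, which takes part in the activation of Mmp2, stood at 0.51 (-0.65 to 1.64) and Timp1 at 0.43 (-0.72 to 1.56). Both turned sign without vehicle mice 3 and 5, to -0.20 and -0.37, as did Timp3 after quantile normalization, to -0.66.

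Activating proteases went both ways, 5 of 12 higher and 6 lower, with a median g of -0.20. Ctsg, cathepsin G of neutrophil granules, stood at -2.28 (-3.82 to -0.68; limma adjusted p = 0.455; exact permutation p = 0.00794, the smallest this design gives). Its values ran from 11.792237 to 11.793626 in vehicle mice and from 11.791387 to 11.792001 in maslinic acid mice, without overlap. Plau, the urokinase that starts the plasmin cascade, stood at -2.13 (-3.61 to -0.57; limma adjusted p = 0.468; exact permutation p = 0.00794), also without overlap. Its 10 arrays spanned 7 steps, however, with 6 distinct values, and its g was -0.43 after centring and -0.08 after quantile normalization. Over all genes the group ranges did not overlap for 1.38%. Ctsg and Plau were named for the lowest limma p of this list, so their p-values and separation are no independent support.

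Cytokines and receptors that induce metalloproteinases had 5 of 14 higher and 9 lower, with a median g of -0.32. Osm, oncostatin M, stood at -0.74 (-1.90 to 0.45) and its receptor Osmr at 0.79 (-0.41 to 1.95). Of 13 measured transcription factors 10 were higher and 3 lower, with a median of 0.72, which was 0.20 after quantile normalization and 0.18 without vehicle mice 3 and 5. Fosl2, an AP-1 subunit, stood at 1.66 (0.25 to 3.0; limma adjusted p = 0.488), and Etv4, an ETS factor, at -1.49 (-2.78 to -0.12; limma adjusted p = 0.508). After quantile normalization these were -0.08 and 0.20.

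All 14 of 14 substrates of the joint matrix had a higher mean, with a median g of 0.95 and a range of 0.47 to 1.76, and 0 passed. The median was 0.71 after quantile normalization, 0.95 after centring and 0.54 without vehicle mice 3 and 5. Of these genes 5 (Col1a1, Dcn, Col2a1, Acan and Comp) are also fibroblast or chondrocyte markers. The means of 12 of 12 fibroblast, 10 of 10 chondrocyte, 6 of 6 osteoblast and 10 of 10 skeletal muscle markers were higher too, and their part in the substrates was not tested. Tnc, tenascin-C, stood at 1.76 (0.32 to 3.14; limma adjusted p = 0.488) and Lama4, a laminin chain, at 1.18 (-0.11 to 2.41). The 6 of 6 genes for uptake and clearance were also higher, with a median of 0.84, which was -0.08 after quantile normalization. Ctsl, a lysosomal cathepsin, stood at 0.96 (-0.28 to 2.14) and Lrp1, a receptor that takes up metalloproteinases, at 0.89 (-0.33 to 2.06). The 8 measured of 13 other metalloproteinase genes were split 4 to 4, with Mmp24 at -1.17 (-2.40 to 0.11) and Mmp11 at 0.78 (-0.42 to 1.94), the latter -0.15 after centring.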

How the data were processed

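Values deposited per probe set are called a score, since background correction, normalization and summary were not given in the sources used here; per the submitters' processing notes the authors used R 3.2.1. RNA (100 ng per mouse) was labelled with a 3' method and hybridised to Affymetrix mouse arrays, per the labels' protocols. The titles give 2 groups of 5 biological replicates and no batch. No pair of arrays was identical.

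Of 39993 probe sets 34202 named 1 gene in the platform annotation, 931 several and 4860 none, and RefSeq changed 0 symbols. The design had foreseen log2 values; the same tests were run on the scores as deposited. Maslinic acid was compared with vehicle by limma 3.58.1 in R 4.3.3 (lmFit, eBayes, prior degrees of freedom 0.503), Benjamini-Hochberg over all probe sets. Exact permutation tests used all 252 assignments, with a smallest p of 0.00794; all tests were two-sided. Correlations used 100000 permutations, adjusted over 45 pairs of members and over 80 pairs with marker scores. Rounding affects genes of few distinct values; S100a8, a neutrophil marker, differed by 1 step. The limma step was tested on simulated data of 39993 probe sets, with 4 false calls.

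The members and lists were chosen with earlier results of these data known. Named were all members, the 2 genes of lowest p in each related list, Timp1 to Timp4, the 3 genes most like 5 members, and pairs with an adjusted p under 0.05; other pairs were named for their class or after their values were seen. Replicate numbers were checked for pairing: deviations of same-numbered mice had r of 0.35, -0.39, -0.18, 0.34 and -0.02, so they were not used to pair mice. Alternatives were the replicate block, quantile normalization, centring, array weights, trended and robust eBayes, filters, exact Wilcoxon tests, other probe set rules, and leaving out each array or vehicle mice 3 and 5. Python 3.11.15, pandas 2.3.3, numpy 2.4.6, scipy 1.17.1 and matplotlib 3.10.9 made tables and figures. Their small number of arrays limits the precision.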

Additional observations from a re-analysis of the deposited data

Results flagged for a closer look

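Of 54 groups of 5 mice examined among members and named related genes, 4 held a mouse whose gap to its nearest neighbour, as a share of the group's range, was above the critical value of 0.71; chance gives about 1 in 20. In Mmp14 maslinic acid mouse 2 was far below the other maslinic acid mice, with a share of 0.74. In Timp4 vehicle mouse 4 was far above the other vehicle mice, at 0.778. In Plau vehicle mouse 5 was highest, at 0.75, in a gene whose arrays span 7 steps. In Ctsl vehicle mouse 3 was far below, at 0.919.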

How the results depend on the processing

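None of the 10 members passed under any alternative run, and Mmp2, Mmp9, Mmp14 and Mmp23 kept their direction in all of them. The number of probe sets passing was 8 after quantile normalization and 0 to 1 when each array was left out (1 without maslinic acid mouse 1, a probe set naming no single gene). Of genes, 3 passed after quantile normalization (Klf3, Rnf130 and 2310039H08Rik, which had no spread left within groups) and 1 with trended and robust eBayes (BC016579, 3 distinct values). These were named after their values were seen. Quantile normalization turned Mmp8 to 0.33, Mmp13 to -0.57, Mmp19 to -0.86, Timp3 to -0.66, Fosl2 to -0.08 and Etv4 to 0.20. Centring turned Mmp19 to -0.08, Mmp11 to -0.15 and Timp2 to -0.17; only 29.3% and 14.9% of genes had a higher mean under these scalings. Leaving out vehicle mice 3 and 5 turned Mmp3 to -0.20, Mmp10 to 0.37, Mmp19 to -0.04, Timp1 to -0.37 and Timp2 to -0.20, and array weights turned Mmp3 to -0.18. With each array left out, g ranged from -0.29 to 0.41 for Mmp3 (below 0 without vehicle mouse 3 or 4, at -0.09, or maslinic acid mouse 3, at -0.05), from -0.69 to 0.18 for Mmp12, from -0.23 to 0.84 for Timp1, from -1.03 (without vehicle mouse 1) to -0.30 for Mmp8 and from -1.22 (without vehicle mouse 4) to -0.21 for Mmp10. The cause was not tested.

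The 3 correlated pairs of members became 0 after quantile normalization, 8 after centring (Mmp2 and Mmp14 each with Mmp9, and the 6 pairs of Mmp8, Mmp10, Mmp13 and Mmp19), 1 without vehicle mice 3 and 5 (Mmp3 with Mmp10), 0 as deviations from group means and 5 with a gene's probe sets averaged. With each array left out the count was 0 to 4: 0 without vehicle mouse 3 or 5 or maslinic acid mouse 2 or 5, and 1 without vehicle mouse 4. Centring takes the same median from every gene of an array, and its part in the 8 pairs found after it was not tested. Pairs with marker scores went from 0 to 1 as deviations from group means (Mmp2 with the endothelial score) and to 0 to 2 with each array left out: 1 without vehicle mouse 5 (Mmp13, osteoclast), 2 without maslinic acid mouse 2 (Mmp9, osteoclast and osteoblast) and 1 without maslinic acid mouse 5 (Mmp19, osteoclast). With the replicate number as a block, 0 members and 0 probe sets passed, and g was 0.96 for Mmp2, 0.89 for Mmp14 and 1.27 for Mmp13. Here g is in units of the residual SD after replicate effects, so its size is not comparable with the other g values. Of the vehicle mice 2 of 5 correlated best with their own number. Rounding limits Mmp10 and Plau, and the unknown scale of the scores limits every comparison between genes.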
